A study of Rattus norvegicus with 8 samples.

Results

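A set of nodose ganglion nuclei was selected by their transcripts: at least 1 UMI (unique molecular identifier, 1 counted RNA molecule) of Pde1a, at least 2 of the genes Hunk, Lpar3, Lrrtm3 and Fhip1a detected, and no UMI of Col27a1 or Cysltr2. Of 36741 nuclei in all, 1347 met this rule, and 1206 of them lay in clusters named as neuron-like, out of 25553 neuron nuclei (4.72%, exact binomial 95% interval 4.46 to 4.99%). The 1206 are called rule-positive nuclei below, and the results refer to them unless another set is named. Because these 7 genes chose the nuclei, and because a nucleus with more UMIs meets such a rule more easily, levels of these nuclei against other neurons are given as descriptions without a test.

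The nodose ganglion holds the cell bodies of vagal sensory neurons, which carry signals from the heart, lungs and gut to the brainstem. The nuclei came from Long Evans rats of both sexes, 8 weeks old, with 18 rats per sex, and no group had received a treatment. Each pool combined the ganglia of 1 side from 6 rats, and there were 3 pools for each of the 4 combinations of labelled sex and side: ML1 to ML3 (male, left), MR1 to MR3 (male, right), FL1 to FL3 (female, left) and FR1 to FR3 (female, right). With these numbers the left and right pools of a sex would draw on the same animals, so they are not independent animals, and p-values measure the spread between pools. Pools held between 7140286 and 19456287 UMIs, and rule-positive nuclei between 295720 and 972651 UMIs from 70 to 163 nuclei. Transcripts of 4 Y-linked genes went against the label in ML1 (2.88 CPM, counts scaled to the same total of UMIs, against 84.4 to 91.3 in the other male-labelled pools) and in FL1 (88.6 CPM against 2.73 to 3.95 in the other female-labelled pools), so sexes are given as labelled.

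Vagal sensory neurons are known to fall into many subtypes that differ in the channels and receptors with which they detect stretch, nutrients, irritants and inflammation. PDE1A is a phosphodiesterase that is switched on by calcium and calmodulin and breaks down cyclic AMP and cyclic GMP. HUNK is a serine/threonine kinase related to the energy sensor AMPK, LPAR3 is a G protein-coupled receptor for lysophosphatidic acid, LRRTM3 is a leucine-rich repeat protein of synapses, and FHIP1A is part of a complex that links cargo to the motor dynein through Hook proteins. COL27A1 is a fibrillar collagen and CYSLTR2 a receptor for cysteinyl leukotrienes, both used here only to leave nuclei out.

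Windows at the annotated starts of the 3 genes that give the population its name are shown because the rule and the label turn on their detection in the same nuclei. The sequences are from RefSeq on build GRCr8, 250 bases before to 50 after the annotated start, 5′ to 3′ on the strand of the gene: Pde1a at chr3:85431729-85432028 (minus strand), Hunk at chr11:43126994-43127293 (plus strand) and Lpar3 at chr2:237809095-237809394 (plus strand). All 7 genes of the rule matched an entry. Capitals mark matches, on either strand, to the cAMP response half-site TGACG and the E-box CACGTG.
Pde1a: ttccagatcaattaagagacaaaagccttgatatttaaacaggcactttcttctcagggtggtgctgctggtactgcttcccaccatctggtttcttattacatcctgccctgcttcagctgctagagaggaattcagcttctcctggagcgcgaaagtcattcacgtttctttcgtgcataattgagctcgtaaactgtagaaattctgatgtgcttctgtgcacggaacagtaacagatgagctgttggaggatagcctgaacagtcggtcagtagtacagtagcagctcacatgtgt
Hunk: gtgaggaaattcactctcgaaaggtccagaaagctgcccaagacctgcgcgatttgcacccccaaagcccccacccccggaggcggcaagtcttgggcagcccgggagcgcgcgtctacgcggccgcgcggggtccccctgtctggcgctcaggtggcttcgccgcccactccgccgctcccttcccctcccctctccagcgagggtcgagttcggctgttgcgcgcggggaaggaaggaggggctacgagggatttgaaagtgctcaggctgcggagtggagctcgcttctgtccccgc
Lpar3: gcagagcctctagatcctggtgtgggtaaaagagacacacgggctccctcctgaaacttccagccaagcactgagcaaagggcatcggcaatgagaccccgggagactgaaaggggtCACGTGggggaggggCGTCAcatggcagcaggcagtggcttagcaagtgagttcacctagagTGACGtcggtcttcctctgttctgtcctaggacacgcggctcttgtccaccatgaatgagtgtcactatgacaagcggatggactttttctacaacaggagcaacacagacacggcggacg
The 3 windows were unlike in base composition. The Hunk window had 68.0% G and C and 29 CpG dinucleotides, the Lpar3 window 56.3% and 13, and the Pde1a window 45.7% and 7. In the Lpar3 window an ATG with a reading frame open to the window's end begins before the annotated start. That window may therefore hold coding sequence and not the promoter. The Lpar3 window held 2 half-sites, 1 on each strand, and 1 E-box. Neither motif occurred in the Pde1a and Hunk windows. Among 33469 rat windows cut in the same way, 21.2% held TGACG and 6.42% held CACGTG, and a match is only a match of letters.

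Pde1a, the gene every rule-positive nucleus had to contain, was also the most abundant of the 5 required genes in CPM, a scale per library and not per gene length. Its level in rule-positive nuclei ran from 421 to 573 CPM over the 12 pools with a median of 490.4 CPM, and in neurons outside the rule from 148 to 187 CPM with a median of 161 CPM. Hunk ran from 167 to 270 CPM with a median of 229.5 CPM, against 74.2 to 102 CPM outside the rule. Both genes were higher inside the rule in all 12 pools, as the selection required.

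Lpar3 was the sparsest of the 5. It ran from 40.6 CPM in MR1 to 118 CPM in ML2, with a median of 66.1 CPM, against 9.36 to 17.6 CPM outside the rule. The high value of ML2 was 35 UMIs spread over 30 of its 70 nuclei. Only 372 of the 1206 nuclei (30.8%) contained an Lpar3 UMI, whereas Lrrtm3 was found in 70.8%, Hunk in 68.8% and Fhip1a in 57.8%. Lrrtm3 (162 to 267 CPM, median 183) and Fhip1a (149 to 231 CPM, median 178) were close to each other in level.

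**Figure D1:**
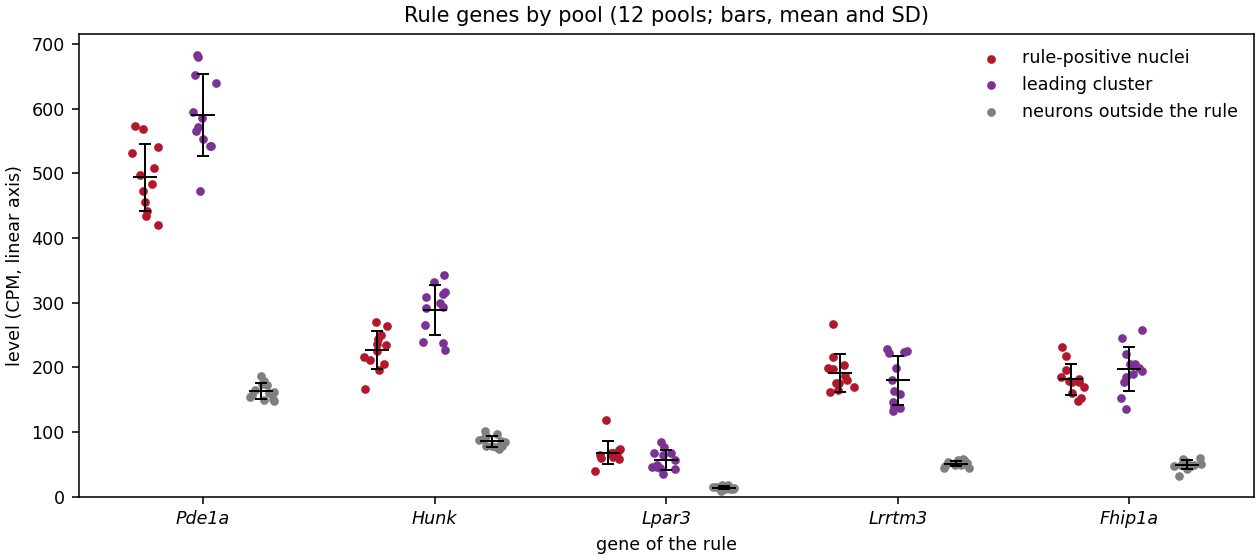
Level of the 5 required genes (CPM, linear axis) in each of the 12 pools, for rule-positive nuclei, for the leading cluster and for neurons outside the rule. Points are pools and bars are mean and SD over 12 pools. For each of the 5 genes, the pools inside the rule and those of the leading cluster lie above the pools outside the rule, and Lpar3 in ML2 (118 CPM) stands above the other pools.

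The nuclei met the rule by different routes. Hunk with Lrrtm3 was the most frequent combination (266 nuclei, 22.1%), followed by Lrrtm3 with Fhip1a (245, 20.3%) and Hunk with Fhip1a (170, 14.1%). All 4 genes were detected in 44 nuclei (3.65%), 3 of 4 in 253 and exactly 2 in 909. Most nuclei therefore sat on the threshold, and nuclei just outside it were common: 2197 neurons had Pde1a and 1 of the 4 genes, 779 had at least 2 of the 4 but no Pde1a, and 313, 387 and 58 met everything except the absence of Col27a1, of Cysltr2, or of both.

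Some genes that the rule did not read differed in steps across this edge, and others did not. Slc4a7, a sodium bicarbonate cotransporter, stood at 270.2 CPM in nuclei with all 4 genes, 274 CPM with 3 and 212 CPM with exactly 2, and at 167 and 134 CPM in Pde1a-containing neurons with 1 and none of the 4. Col6a5, a collagen VI chain, stood at 1902, 1808 and 1339 CPM inside and at 878 and 618 CPM outside. Zfp804b, a zinc finger gene, stood at 861, 859 and 716 CPM inside and at 575 and 651 CPM outside, and Gdpd4, a glycerophosphodiester phosphodiesterase family member, showed no such order at 26.5, 21.5 and 30.1 CPM inside and 30.4 and 27.3 CPM outside. In neurons that missed the rule through Cysltr2 alone, Col6a5 was at 2441 CPM, above the 3 classes inside it. These genes were chosen after their values were seen. The median depth decreased in the same order, from 6239 UMIs per nucleus with all 4 genes to 5196, 4310, 3593 and 2824 UMIs, and the part of depth in these values was not tested.

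A further 141 nuclei met the rule outside the neuron clusters. They included 77 of 4776 satellite glia-like nuclei (1.61%), 17 of 1305 mural-like nuclei (1.30%), 14 of 491 skeletal muscle-like nuclei (2.85%), 6 of 2554 myelinating Schwann-like nuclei (0.235%) and 27 of 2028 nuclei of unnamed clusters (1.33%). In 34 fibroblast-like nuclei there were 0, which allows a share of up to 10.3% (upper end of the exact binomial interval). These 141 nuclei were deep, with a median of 7783 UMIs against 4557 in the rule-positive neurons and 2820 in other neurons, and 9741 in the satellite glia-like ones. When every nucleus was thinned to 2000 UMIs and shallower nuclei were left out, the rule was met by 375 of 17495 neurons (2.14%), 5 of 3037 satellite glia-like nuclei (0.165%), 4 of 595 mural-like nuclei (0.672%) and 5 of 194 skeletal muscle-like nuclei (2.58%). The muscle-like share was thus not below that of neurons at equal depth. Pde1a alone was found in 40.5% of mural-like nuclei (245 CPM, median 1836 UMIs), in 20.7% of satellite glia-like nuclei (74.1 CPM, median 2666.5 UMIs) and in 9.87% of myelinating Schwann-like nuclei (56.8 CPM, median 1549 UMIs).

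The rule-positive nuclei lie in clusters that were named from neuron markers, so their neuron marker levels are a description. The summed level of 11 neuron markers was 9073 to 11566 CPM over pools, against 9562 to 11869 CPM in other neurons, and the sum of 8 nodose markers was 413 to 620 CPM against 414 to 627 CPM. Of the nodose list, Slc17a6, the vesicular glutamate transporter of excitatory neurons, gave 2094 UMIs and P2rx2, an ATP-gated channel typical of nodose neurons, 641 UMIs. Hoxd3, also on that list, gave none. Jugular markers summed to 127 to 254 CPM against 132 to 367 CPM. Satellite glia markers summed to 243 to 519 CPM (278 to 442 CPM in other neurons) and skeletal muscle markers to 108 to 945 CPM (127 to 1200 CPM), so both were present at about the level of other neurons, and of the macrophage markers C1qa and Aif1 were at 0.

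The label of a single neuron type was only partly borne out. Neurons were clustered again without the 7 rule genes, and the rule-positive nuclei spread over many of the 27 clusters. The cluster with the most of them, the leading cluster below, had 1113 nuclei and held 283 rule-positive ones, 23.5% (21.1 to 26.0%) of the set, against 3.41% of the neurons outside the rule. Within that cluster 25.4% of nuclei met the rule. The next clusters were led by St18 and Col27a1 (234 nuclei, 19.4% against 14.2%), by Itm2a and S1pr3 (214, 17.7% against 5.17%), by Edn3 and Chrdl1 (104, 8.62% against 4.93%) and by Tafa4 and Esr1 (86, 7.13% against 9.82%). The Cysltr2-led cluster, whose gene the rule excluded, still gave 42 nuclei (3.48% against 7.17%). With at least 3 of the 4 genes required, 109 of 297 nuclei (36.7%) lay in the leading cluster.

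**Figure D2:**
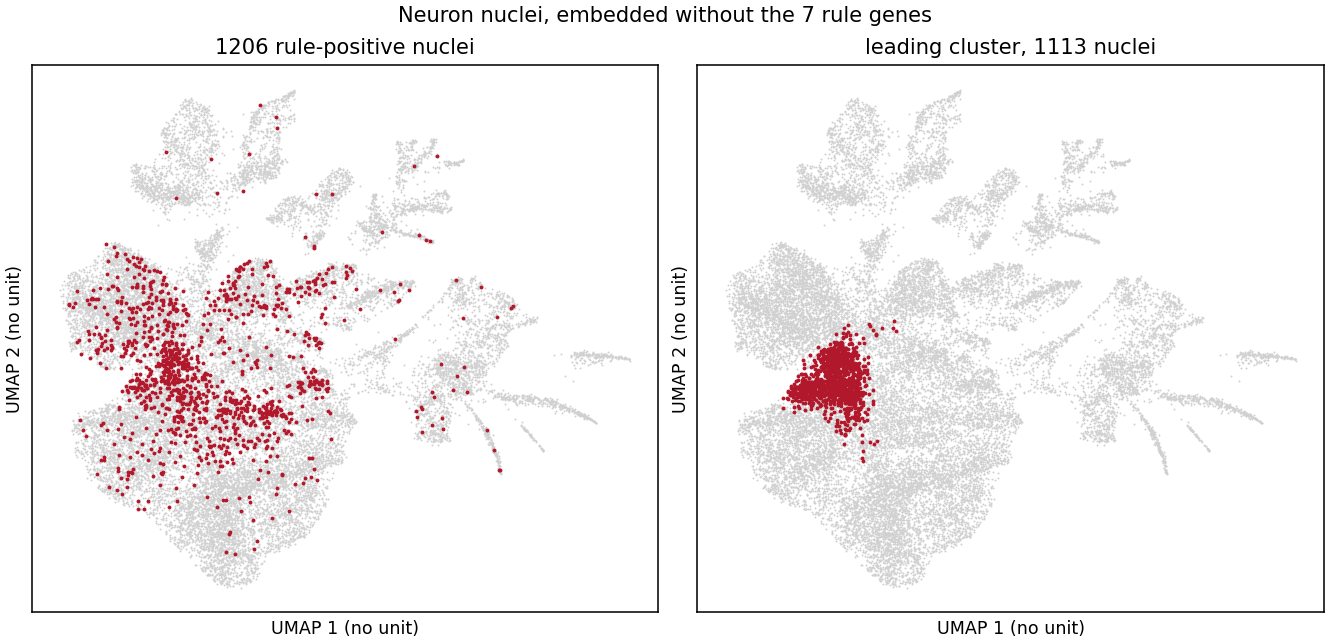
Map of the neuron nuclei (UMAP, axes without unit) computed without the 7 rule genes; grey points are all neurons and red points are the 1206 rule-positive nuclei (left) or the 1113 nuclei of the leading cluster (right). The rule-positive nuclei are densest where the leading cluster lies but spread across the large connected mass of neurons.

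**Figure D3:**
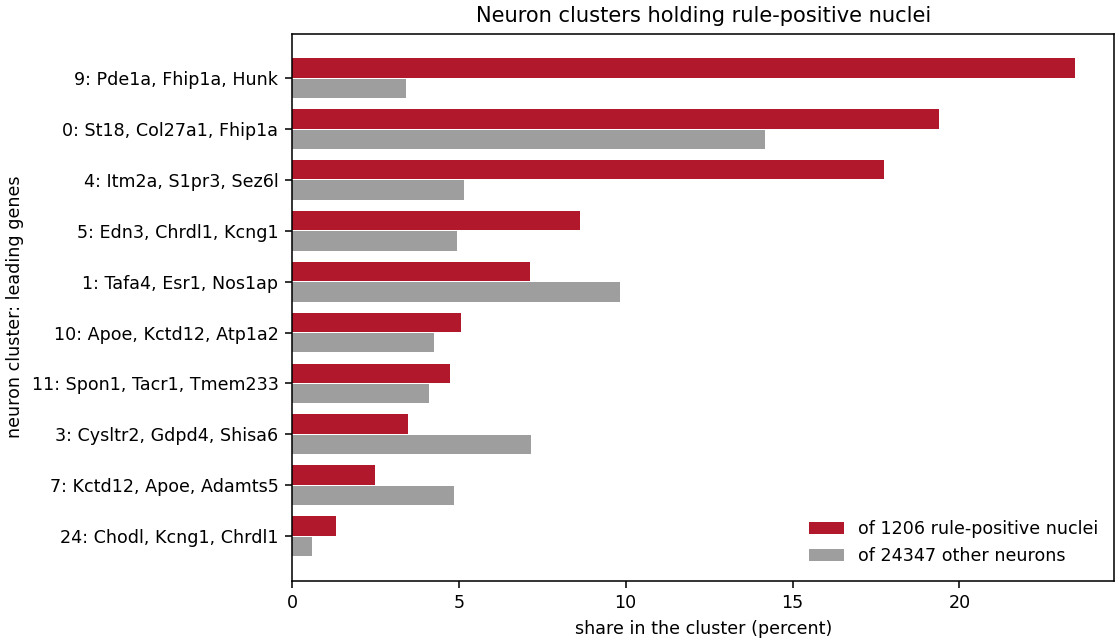
Share (percent) of the 1206 rule-positive nuclei (red) and of the 24347 neurons outside the rule (grey) in each of the 10 neuron clusters that hold most rule-positive nuclei, with each cluster's leading genes. The leading cluster takes 23.5% of the rule-positive nuclei and 3.41% of the others, and the cluster led by Tafa4 and Esr1 takes a smaller share of the rule-positive nuclei than of the others.

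In the leading cluster the 5 required genes were themselves the leading genes, although they had no part in building it. By the median over pools of the log2 ratio to the remaining neurons, Fhip1a ranked 1 of 7005 genes (1.82), Pde1a 2 (1.72), Hunk 3 (1.65), Lrrtm3 4 (1.64) and Lpar3 6 (1.57). The cluster was picked for its rule-positive nuclei, so this too is a description. Its pools held 472 to 683 CPM of Pde1a, with a UMI in 772 of 1113 nuclei (69.4%), and 35.4 to 84.5 CPM of Lpar3, with a UMI in 164 nuclei (14.7%). Most nuclei of the cluster that missed the rule were shallower: its median depth was 2561 UMIs, and 3888 UMIs among its rule-positive nuclei.

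Levels in rule-positive nuclei varied between the clusters, which were themselves built from expression, and often differed from the other nuclei of the same cluster. Col6a5 was at 3065 CPM in those of the leading cluster and at 854 CPM in those of the St18-led cluster, where the other nuclei had 2542 and 524 CPM. Kirrel3, an adhesion protein of the nephrin family, was at 5803 CPM in the St18-led cluster's rule-positive nuclei and at 902 CPM in the Itm2a-led cluster's, where the other nuclei had 6649 and 395 CPM. Trpa1, the irritant-gated channel, was at 986 CPM in the rule-positive nuclei of the Itm2a-led cluster, 542 CPM in those of the leading cluster and 95.8 CPM in those of the St18-led cluster. The other nuclei of these clusters had 1047, 492 and 62.0 CPM. Trpa1 was at 624 CPM in rule-positive against 854 CPM in other nuclei of the Edn3-led cluster, and at 609 against 557 CPM in the Tafa4-led cluster. Slc4a7 and Col6a5 were higher in rule-positive than in other nuclei of the St18-led, Itm2a-led, Edn3-led and Tafa4-led clusters alike (Slc4a7 183 to 251 CPM against 161 to 182 CPM), and in the leading cluster Slc4a7 was 354 CPM against 378 CPM. These levels pool all nuclei of a set and carry no replicate error.

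Outside the rule genes, no gene was at least 2-fold higher in rule-positive nuclei than in other neurons in all 12 pools (0% of 6926 genes with a mean of at least 20 CPM in either set; ratios on the scale log2 of CPM plus 5). Lower ones numbered 9 (0.13%). At any size, 243 genes (3.51%) were higher and 385 (5.56%) lower in all 12 pools. Over all genes considered the median ratio was 0.01 on the log2 scale.

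The 9 genes at least 2-fold lower in every pool were Ptprt, Brinp3, Kcnj6, Egfem1, Pde4b, Casz1, Kcnh8, Cntnap5a and ENSRNOG00000065736. Ptprt, a receptor tyrosine phosphatase, was at 36.2 ± 15.9 CPM (SD, n = 12) against 186 ± 43.1 CPM. Pde4b, which breaks down cyclic AMP, was at 118 ± 46.5 CPM against 380 ± 40.0 CPM, and Kcnh8, a voltage-gated potassium channel, at 120 ± 31.6 CPM against 352 ± 33.9 CPM. For these 3 genes the pools of the sets did not overlap.

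Among genes higher in all 12 pools, chosen for display after their values were seen, Nnat had the largest median ratio (1.22 on the log2 scale). Nnat, an imprinted membrane protein, was at 35.3 to 86.6 CPM against 8.61 to 30.9 CPM. Kcnq3, a subunit of the M-type potassium channel that restrains repeated firing, was at 1928 ± 214 CPM against 1009 ± 159 CPM, with the lowest rule-positive pool (1607 CPM) above the highest other pool (1202 CPM). Trpa1 was at 608 ± 91.6 CPM against 362 ± 31.3 CPM, also without overlap. Within the leading, St18-led, Itm2a-led, Edn3-led and Tafa4-led clusters, Kcnq3 was at 1790 to 2908 CPM in rule-positive and 1655 to 2884 CPM in other nuclei. Trpa1 was lower in rule-positive than in other nuclei of the Itm2a-led and Edn3-led clusters and higher in those of the leading, St18-led and Tafa4-led clusters. The part of cluster makeup in these differences was not tested. Ass1 and Asl, consecutive enzymes of arginine synthesis, were both higher, at 245 against 141 CPM and 42.2 against 24.7 CPM.

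The leading cluster was more distinct. At least 2-fold higher in all 12 pools were 4 of 6998 genes (0.0572%), and at least 2-fold lower were 91 (1.3%); at any size 511 genes (7.3%) were higher and 914 (13.1%) lower. The 4 were Slc4a7 (375 ± 35.2 against 130 ± 8.08 CPM), Col6a5 (2693 ± 466 against 1000 ± 190 CPM), Dmgdh, an enzyme of choline breakdown (162 ± 21.0 against 57.4 ± 3.65 CPM), and Cdh18, a cadherin (887 ± 99.4 against 344 ± 21.4 CPM). Their log2 ratios were 1.47, 1.45, 1.35 and 1.35. Not all were particular to the cluster. In nuclei outside the rule, Dmgdh was at 153 CPM in the St18-led and 149 CPM in the leading cluster. Col6a5 was also a leading gene of the Cysltr2-led cluster. Slc4a7 and Cdh18 were lower in the St18-led cluster, at 182 and 460 CPM against 378 and 865 CPM in the leading cluster. Kcnq3, at 2584 ± 397 against 1017 ± 149 CPM, had a median ratio of 1.39 but was under 2-fold in at least 1 pool, and Itpr1, the channel that releases calcium from internal stores, was at 848 ± 53.3 against 390.2 CPM.

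The lowest genes of the cluster included receptors and channels known from other sensory neurons. Grik1, a kainate receptor subunit, was at 63.7 ± 40.7 CPM against 751 ± 128 CPM, and Piezo2, the mechanically gated channel of stretch-sensing vagal neurons, at 24.98 ± 11.2 CPM against 310 ± 82.3 CPM. Htr3b, a subunit of the serotonin-gated 5-HT3 channel, was at 32.7 ± 14.5 CPM against 253 ± 26.9 CPM. The pools did not overlap in any of these 3 genes, whose log2 ratios were -3.57, -3.45 and -2.99.

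The lists that follow count genes with a mean of at least 20 CPM in either set and leave out the 7 rule genes; their counts can be read against the percentages just given for all genes. For cyclic nucleotide phosphodiesterases, 12 genes were considered. In rule-positive nuclei 4 were higher in all 12 pools (Pde2a, Pde4d, Pde8b, Pde9a) and 3 lower (Pde1c, Pde3a, Pde4b), with a list median of 0.03 on the log2 scale. In the leading cluster 4 were higher and 4 lower, with a list median of 0.39 against -0.02 for all genes. There the cyclic AMP-specific Pde4d was at 2753 ± 211 CPM against 1540 ± 103 CPM and its relative Pde4b at 41.4 ± 23.1 CPM against 373 ± 42.5 CPM. Pde8b (588 against 284 CPM), Pde9a, which is specific for cyclic GMP (350 against 176 CPM), and Pde10a (518 against 262 CPM) were higher, while Pde1c, the calcium-activated relative of Pde1a, was lower (90.8 against 286 CPM). Of 13 genes for cyclic nucleotide synthesis and kinases, 1 was higher in the cluster (Adcy2, an adenylyl cyclase, 659 against 454 CPM) and 3 lower.

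The remaining families of the rule genes showed few differences. For lysophospholipid signalling 4 genes were considered, and in rule-positive nuclei the sphingosine phosphate receptor S1pr3 was higher (151 ± 25.3 against 87.8 ± 11.04 CPM) and Enpp2, which makes lysophosphatidic acid outside the cell, lower (47.7 ± 19.4 against 97.8 ± 10.4 CPM). In the leading cluster S1pr3 was at 72.2 CPM against 93.0 CPM, the opposite order in 10 of 12 pools, and Enpp2 at 21.7 CPM against 97.0 CPM. None of 12 AMPK-related kinases and none of 6 FHIP and Hook genes was higher or lower in all 12 pools in rule-positive nuclei. In the cluster Mark3 was higher and Sik3 lower, and of the 6 FHIP and Hook genes Aktip was lower.

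Among synaptic organisers related to LRRTM3, Lrrc4c was higher in both sets (392 against 295 CPM in rule-positive nuclei, 478 against 295 CPM in the cluster). Lrrtm4 and Lrfn5 were lower in both, within 11 genes considered of which 2 and 6 were lower. Neurexin 1, the presynaptic partner of LRRTM proteins, was higher in both, at 5067 ± 265 against 4247 ± 170 CPM and at 6819 ± 364 against 4216 ± 156 CPM.

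Of the receptors and transducers known from vagal neurons, 22 were considered in rule-positive nuclei, and 2 were higher and 5 lower in all 12 pools. The higher ones were Trpa1 and the capsaicin receptor Trpv1 (130 ± 32.9 against 81.8 ± 6.56 CPM), and the lower ones Piezo2, Asic2, Htr3b, Gpr65 and Chrm2. In the leading cluster Trpv1 (139 against 83.2 CPM) and Trpa1 (510 against 374 CPM) were again higher, and 14 of 21 were lower, with a list median of -1.05 on the log2 scale. P2rx3, the ATP-gated channel of sensory endings, was among the lower ones at 174.5 ± 32.2 against 277 ± 25.7 CPM. Asic2, an acid-sensing channel, was at 772 ± 261 CPM against 2394 ± 245 CPM.

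Ion channels divided in a similar way. Scn10a, the sodium channel of nociceptors, was higher in rule-positive nuclei (1599 ± 103 against 1244 ± 85.2 CPM) and in the cluster (1813 ± 113 against 1249 ± 84.5 CPM), whereas Scn1a and Scn8a of myelinated neurons were lower in both. Of 26 genes of potassium and related channels, 2 were higher and 12 lower in each set: Kcnq3 was higher in both, joined by Kcna6 in rule-positive nuclei and by Kcnc2 (841 against 411 CPM) in the cluster. Calcium channel genes numbered 0 higher and 4 lower of 13 in rule-positive nuclei, and 4 higher and 4 lower in the cluster, where the L-type channel Cacna1c was at 1223 against 830 CPM and the P/Q-type Cacna1a at 175 against 473 CPM.

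Among receptors and ligands, of 19 glutamate and GABA receptor genes none was higher and 9 were lower in rule-positive nuclei, and 1 (Grm7) was higher and 10 were lower in the cluster. Of 8 neurotrophic factor receptors 1 was higher and 3 lower in rule-positive nuclei, and 1 higher and 6 lower in the cluster. The nerve growth factor co-receptor Ngfr had opposite orders in the 2 sets, at 1307 ± 181 against 1076 ± 161 CPM in rule-positive nuclei and 666 ± 60.8 against 1106 ± 168 CPM in the cluster. Among peptides and secreted ligands Adcyap1, which encodes the neuropeptide PACAP (79.9 ± 12.2 against 47.3 ± 9.75 CPM), and Cartpt (74.0 ± 25.1 against 43.5 ± 13.7 CPM) were higher in rule-positive nuclei and 2 of the 9 considered were lower; in the cluster none was higher and 4 were lower. Of 9 sensory transcription factors none differed in all 12 pools in rule-positive nuclei, and 3 were higher in the cluster (Runx1, Ebf1 and Tshz2).

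Axon guidance and adhesion genes made the largest list, with 35 considered in rule-positive nuclei. There 5 were higher and 16 lower, and in the cluster 4 of 36 were higher and 18 lower. The netrin receptor Unc5c (1591 against 918 CPM), the ephrin Efna5 (2612 against 1536 CPM), Kirrel3 (2636 against 1464 CPM) and Cdh18 were those higher in the cluster. Contactins were lower, Cntn1 at 38.2 against 275 CPM and Cntn3 at 3.50 against 54.9 CPM.

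Rule-positive nuclei made up a larger share of neurons in left than in right pools. The left pools had 4.64% (ML1), 3.93% (ML2), 5.76% (ML3), 6.76% (FL1), 6.01% (FL2) and 6.49% (FL3), and the right pools 3.78% (MR1), 3.52% (MR2), 3.55% (MR3), 5.00% (FR1), 4.17% (FR2) and 4.64% (FR3). Within each labelled sex every left pool was above every right pool, while the sides overlapped across sexes. The means were 5.60 ± 1.10% (SD, n = 6) and 4.11 ± 0.609%, a difference of -1.49 percentage points for right minus left (exact permutation test within labelled sex, two-sided, p = 0.005, the smallest that its 400 relabellings can give; 0.01 adjusted over 4 tests of shares and depth). That test took pools as unpaired. With the pool number as a block, the permutation p was the smallest such a test can give, and it did not pass after adjustment.

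Female-labelled pools had a larger share than male-labelled pools, at 5.51 ± 1.06% against 4.20 ± 0.867% (n = 6 each). Within each side the female-labelled pools lay above all male-labelled ones, and over both sides the groups overlapped. The difference of 1.32 percentage points had an exact permutation p = 0.005 within side, 0.01 adjusted, and 1.16 points without ML1 and FL1 (exact permutation, adjusted p = 0.0333). Both differences had an adjusted exact permutation p = 0.06 when MR2, MR3, FL1, FL2 or FL3 was left out, with differences of -1.41 to -1.25 points by side and 1.07 to 1.22 points by sex.

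Depth enters a rule on detection. The median UMIs of rule-positive nuclei were 4592 ± 899 in left and 4532 ± 802 in right pools, and 4982 ± 530 in female-labelled and 4141 ± 865 in male-labelled pools (exact permutation, adjusted p = 0.895 and p = 0.107). These medians are of nuclei that had met the rule, so they cannot show how many shallow nuclei missed it. Other neurons had medians of 2343 to 3731 UMIs in left pools and 2090.5 to 3390 UMIs in right pools. By labelled sex these were 2652 to 3731 UMIs in female-labelled and 2090.5 to 3192 UMIs in male-labelled pools. With all nuclei thinned to 2000 UMIs the share was 2.56 ± 0.463% left and 1.80 ± 0.341% right, a difference of -0.760 points (exact permutation, p = 0.015, adjusted p = 0.06). By sex it was 2.34 ± 0.556% in female-labelled and 2.02 ± 0.555% in male-labelled pools, a difference of 0.317 points (exact permutation, adjusted p = 0.253). Neither thinned difference passed the threshold after adjustment.

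The leading cluster, which was built without the rule genes, took 3.64% to 5.55% of neurons in left pools (mean 4.75 ± 0.780%, n = 6) and 3.14% to 5.01% in right pools (4.07 ± 0.712%). The groups overlapped, and the difference of -0.674 points did not pass (exact permutation, p = 0.17, adjusted p = 0.34). By labelled sex it was 4.46 ± 0.748% against 4.36 ± 0.906% (exact permutation, adjusted p = 0.8). Rule-positive nuclei inside the cluster alone were 1.40 ± 0.264% of neurons left and 0.899 ± 0.179% right (exact permutation, adjusted p = 0.02). Shares depend on what else was captured, and fewer nuclei of a kind and less RNA per nucleus cannot be told apart by a rule on detection.

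**Figure D4:**
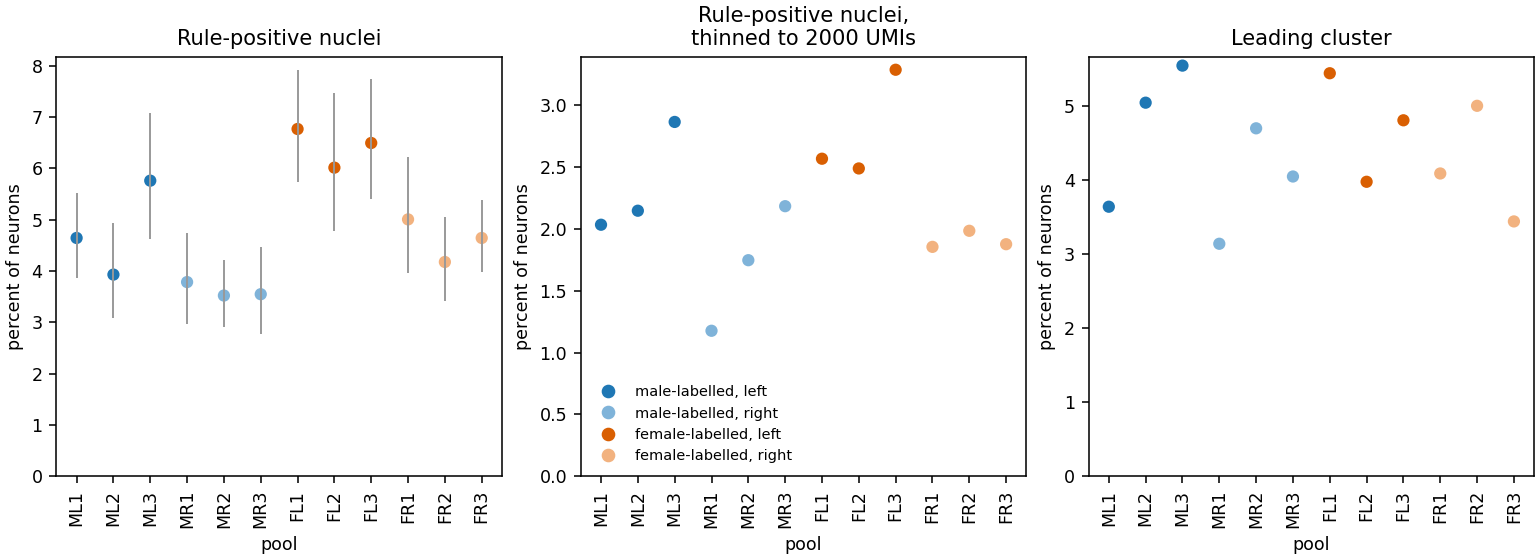
Percent of neurons in each of the 12 pools that met the rule (left, bars are exact binomial 95% intervals), that met it after thinning to 2000 UMIs (middle) and that lay in the leading cluster (right); colours give labelled sex and side. Within each labelled sex the left pools lie above the right pools in the first panel, whereas in the third panel the sides overlap.

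Within rule-positive nuclei no gene passed the test between sides, with pools taken as unpaired. With the pool number as a replicate block, the same test called 8 genes, so this result depends on the pairing assumed. UMIs were summed per pool and tested with edgeR's quasi-likelihood test, with Benjamini-Hochberg adjustment over all 7577 genes that passed the low-count filter; 0 genes (0%) had an adjusted p under 0.05, 370 had an unadjusted p under 0.05, and DESeq2 also called 0. Crhr2, a receptor for corticotropin-releasing hormone peptides, had the smallest p. Its left pools were at 87.4 to 118 CPM (median 97.8 CPM) and its right pools at 46.8 to 81.8 CPM (median 59.8 CPM), without overlap, and the log2 change was -0.63 ± 0.14 (SE; adjusted p = 0.395 in edgeR's quasi-likelihood test). Other neurons had 84.9 and 72.1 CPM.

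The rule genes did not differ by side beyond the spread of pools: Pde1a was at 499 ± 51.0 CPM left and 489 ± 56.5 CPM right, and Lpar3 at 74.8 ± 21.9 and 61.3 ± 11.2 CPM (log2 change -0.20 ± 0.16; edgeR's quasi-likelihood test, adjusted p = 0.991). Of 7 genes that an earlier look at all neurons had found by side, Xylt1, Crtac1, Tmem132d, Rgs9, Cyp26b1 and Rasgef1b were tested here and none passed, and Sntg1 was below the low-count filter. The interaction of side and sex gave 0 genes (0%), 293 at an unadjusted p under 0.05 and 0 by DESeq2. Its smallest p belonged to Nos1, neuronal nitric oxide synthase (log2 -1.20 ± 0.23; edgeR's quasi-likelihood test, adjusted p = 0.160).

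Between labelled sexes 2 of 7577 genes (0.0264%) passed, both lower in female-labelled pools. Col1a1, a collagen chain typical of fibroblasts, was at 68.5, 47.3, 60.5, 32.0, 42.3 and 33.5 CPM in ML1 to ML3 and MR1 to MR3 and at 23.7, 20.3, 14.4, 23.6, 19.3 and 24.4 CPM in FL1 to FL3 and FR1 to FR3, without overlap. Its log2 change was -1.20 ± 0.21 (edgeR's quasi-likelihood test, adjusted p = 0.0239), and without ML1 it was -1.04 (adjusted p = 0.108). The call was also lost without MR2, FL2 or FL3 (adjusted p = 0.0592, 0.117 and 0.151). It was lost too without ML1 and FL1 together, whose Y-linked transcripts went against their labels (edgeR's quasi-likelihood test, adjusted p = 0.109). The summed 7 fibroblast markers, Col1a1 among them, were at 127 to 233 CPM in male-labelled and 81.8 to 116 CPM in female-labelled pools of the same nuclei; their part in the result was not tested. Col1a1 in other neurons was 38.8 against 26.8 CPM.

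Trpm8, the cold- and menthol-gated channel, was the other. It was at 146, 33.8 and 25.2 CPM in ML1 to ML3, 12.8, 51.9 and 16.7 CPM in MR1 to MR3 and 6.09 to 25.03 CPM in the female-labelled pools, so the groups overlapped. The ML1 value came from 109 UMIs in 7 of 121 nuclei, 46 of them in 1 nucleus. The log2 change of -2.26 ± 0.42 (edgeR's quasi-likelihood test, adjusted p = 0.0315) was -1.31 without ML1 (adjusted p = 0.210), and DESeq2 did not call it (adjusted p = 0.910). Without MR2, FL1, FL2, FL3, FR1 or FR3 its adjusted p by edgeR's quasi-likelihood test was 0.0501 to 0.248. Trpm8 was not called without ML1 and FL1 together either (log2 -1.34; edgeR's quasi-likelihood test, adjusted p = 0.292). In the leading cluster Trpm8 was nearly absent, at 4.24 ± 3.58 CPM.

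The side difference itself was compared between rule-positive nuclei and other neurons, and 2 of 12994 genes (0.0154%) passed, with 710 at an unadjusted p under 0.05 and 0 called by DESeq2. Nefm, a neurofilament subunit of large and myelinated axons, was at 964 to 1407 CPM left and 1354 to 1673 CPM right in rule-positive nuclei (means 1248 and 1497 CPM) and at 1844 and 1695 CPM in other neurons. The sides overlapped, and the difference of the side changes was 0.40 ± 0.06 on the log2 scale (edgeR's quasi-likelihood test, adjusted p = 4.69e-04; DESeq2 adjusted p = 0.0678). Among rule-positive nuclei of the leading cluster alone it was 0.05. Tafa1, a secreted chemokine-like protein, had a difference of 2.32 ± 0.43 (adjusted p = 0.00511), but 88.4 CPM in MR2 against 2.87 to 24.4 CPM in the other pools, from 46 UMIs in 7 of 113 nuclei; without MR2 the difference was 1.23 (adjusted p = 0.584), and without ML1 1.78 (adjusted p = 0.0802).

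The nuclei of the leading cluster, whether or not they met the rule, gave more calls by side: 7 of 5118 genes (0.137%), with 313 at an unadjusted p under 0.05. DESeq2 called 1, which was Dgki (DESeq2 adjusted p = 0.00554). Its pools held 51 to 151 nuclei and 174954 to 417062 UMIs. Higher on the right were Asic2, Pde1c, Dgki, Dpp10 and Fbn1, and higher on the left Nrxn3 and Creb5. Skeletal muscle markers in these nuclei summed to 105 to 404 CPM in left and 107 to 1169 CPM in right pools and satellite glia markers to 114 to 202 and 144 to 212 CPM; their part in these results was not tested.

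Asic2 was at 654, 538 and 482 CPM in ML1 to ML3 and 616, 794.5 and 469.9 CPM in FL1 to FL3, and at 1253, 1009 and 716 CPM in MR1 to MR3 and 1188, 863 and 682 CPM in FR1 to FR3. The right pools were higher except that FL2 lay above MR3 and FR3. The log2 change was 0.67 ± 0.11 (edgeR's quasi-likelihood test, adjusted p = 3.41e-04; DESeq2 adjusted p = 0.384). In the remaining neurons Asic2 was more abundant on both sides, at 2243 and 2546 CPM.

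Pde1c, which encodes a phosphodiesterase of the same calcium-activated family as PDE1A, was at 28.6 to 91.1 CPM in left pools (median 57.0 CPM) and 99.4 to 155 CPM in right pools (median 117 CPM). The groups did not overlap. Its log2 change was 0.97 ± 0.19 (edgeR's quasi-likelihood test, adjusted p = 0.0124; DESeq2 adjusted p = 0.05002), and Pde1a itself did not pass (592.5 ± 59.1 and 588 ± 72.5 CPM, log2 -0.02 ± 0.08; edgeR's quasi-likelihood test, adjusted p = 0.992). Lrrtm3 had the largest side change of the rule genes, 207 ± 29.2 CPM left and 153 ± 25.1 CPM right (log2 -0.42 ± 0.13; edgeR's quasi-likelihood test, adjusted p = 0.341).

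The other 5 called genes had smaller changes or more overlap. Dgki, a diacylglycerol kinase, rose from 2627 ± 105 CPM left to 3191 ± 254 CPM right (log2 0.28), Dpp10, an accessory subunit of A-type potassium channels, from 202 ± 69.2 to 299 ± 36.7 CPM (0.57), and the microfibril protein gene Fbn1 from 348 ± 53.5 to 466 ± 56.2 CPM (0.40). Nrxn3, a neurexin, fell from 1850 ± 206 to 1488 ± 96.8 CPM (-0.31), and the transcription factor gene Creb5 from 256 ± 30.4 to 172 ± 50.3 CPM (-0.58). Their adjusted p-values in edgeR's quasi-likelihood test were 0.0228 to 0.0353. Each of the 7 calls except that of Asic2 was lost when FL2 was left out (edgeR's quasi-likelihood test, adjusted p = 0.0578 to 0.151) and when FR3 was left out (0.0782 to 0.197). Leaving out ML3, MR1, MR2 or FR2 ended 4 or 5 of the 7 calls each, FL1 3, ML1 and ML2 2 each and MR3 that of Fbn1.

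**Figure D5:**
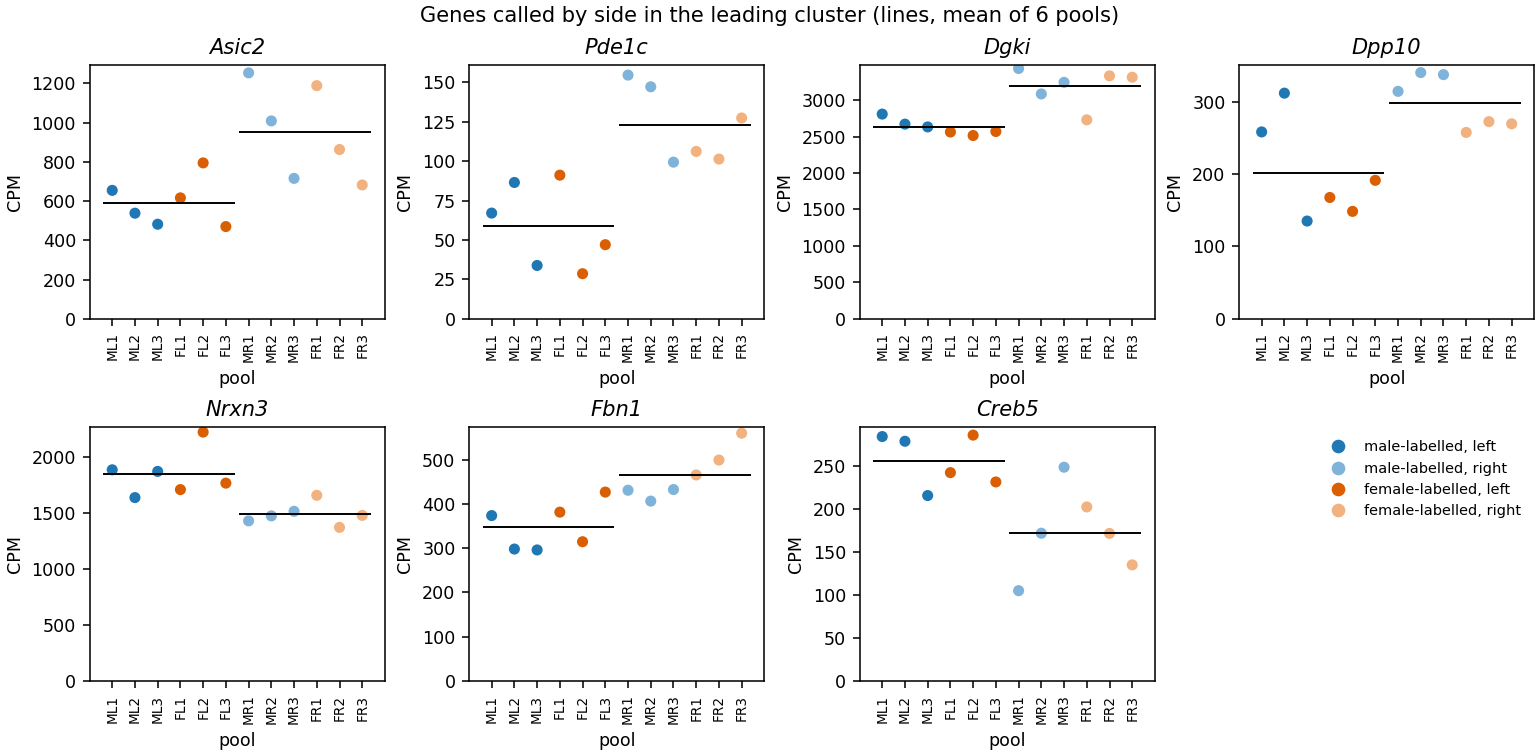
Level (CPM) of the 7 genes called by side in the leading cluster, in each of the 12 pools; points are pools, colours give labelled sex and side, and lines are the means of the 6 left and the 6 right pools. Pde1c is the gene whose left pools (28.6 to 91.1 CPM) all lie below its right pools (99.4 to 155 CPM); in the other 6 genes at least 1 pool crosses.

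Set against the remaining neurons, 9 of 13137 genes (0.0685%) had a different side change in the leading cluster, with 661 at an unadjusted p under 0.05 and 0 called by DESeq2. Asic2 (difference 0.48 ± 0.09 on the log2 scale, adjusted p = 4.78e-04) and Pde1c (0.81 ± 0.18, adjusted p = 0.0225, edgeR's quasi-likelihood test) were among them, as were Creb5, Dpp10, Fbn1, Cntn5, Adamts16 and ENSRNOG00000070383. Kcnq3 was another, and its level was not particular to the cluster. In nuclei outside the rule Kcnq3 was at 2527 CPM in the leading, 2729 CPM in the St18-led and 2884 CPM in the Edn3-led cluster. It was at 2045 CPM in the Tafa4-led and 1655 CPM in the Itm2a-led cluster. Its side change differed by -0.38 ± 0.07 (edgeR's quasi-likelihood test, adjusted p = 8.05e-04). In the leading cluster Kcnq3 was at 2667 ± 457 CPM left and 2501 ± 347 CPM right. In the remaining neurons it was at 908 CPM left and 1126 CPM right. The makeup of the remaining neurons by side, which can enter such a difference, was not tested.

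Between labelled sexes 4 of 5118 genes (0.0782%) passed in the leading cluster, all lower in female-labelled pools. An unadjusted p under 0.05 was found for 341, and DESeq2 called 3, with Thsd7a and Rcan2 among them. Thsd7a, a membrane protein with thrombospondin repeats, was at 402 to 534 CPM in male-labelled pools (median 474 CPM) and 235 to 372 CPM in female-labelled pools (median 314 CPM), without overlap. Its log2 change was -0.65 ± 0.10 (edgeR's quasi-likelihood test, adjusted p = 7.00e-05), and it passed under all 17 alternatives tried. Rcan2, an inhibitor of the calcium-dependent phosphatase calcineurin, was at 144 to 216 CPM (median 176 CPM) against 91.0 to 127 CPM (median 111 CPM), again without overlap (log2 -0.74 ± 0.14; edgeR's quasi-likelihood test, adjusted p = 0.00480), and it too passed under all 17.

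The remaining calls by labelled sex were Kcnq5, an M-type channel subunit (448 ± 67.3 against 320 ± 65.4 CPM, log2 -0.45), and AABR07040864.1, a gene model (1339 ± 484 against 806 ± 373 CPM, log2 -0.76), both with overlapping pools. The call of Kcnq5 was lost without ML3, MR3, FL2, FL3, FR1 or FR3 (edgeR's quasi-likelihood test, adjusted p = 0.0507 to 0.121) and that of AABR07040864.1 without MR3 (0.0667). Without ML1 and FL1 together Kcnq5 was not called either (edgeR's quasi-likelihood test, adjusted p = 0.0952). DESeq2 called neither gene (adjusted p = 0.105 for Kcnq5 and 0.99986 for AABR07040864.1). Thsd7a was also lower in the remaining neurons of female-labelled pools, at 592 against 730 CPM, as a description. Without ML1 and FL1, whose Y-linked transcripts went against their labels, Thsd7a and Rcan2 had log2 changes of -0.63 and -0.67, and 18 genes passed in all; without ML1 alone 21 did.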

How the data were processed

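Single-nucleus RNA was read from nodose ganglia with a split-pool barcoding kit in 8 sublibraries, each holding nuclei of all 12 pools, and pools were taken from the deposited nucleus table. The values are raw UMI counts per gene and nucleus as deposited by the authors. Build mRatBN7.2, R 4.3.2 and Seurat 4.1.3 are named per the submitters' processing notes. Aligner, annotation and barcode filter: not given in the sources used here. In total there were 36741 nuclei, 30560 genes and 139965360 UMIs.

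Nuclei were clustered with scanpy 1.11.5 and Leiden (30 principal components, 20 neighbours, resolution 1, seed 1), and clusters were named from marker lists. Of 28 clusters, 2 without a name (led by Xylt1 and Sctr, and by Ddc and Th; 2028 nuclei) were not counted as neurons. Each had 2 neuron markers at least 1.5-fold higher where 3 were required, so they may still hold neurons. Neurons were then clustered without the 7 rule genes. Scrublet called 2 of 36741 nuclei doublets (0.00544%), too few for the caller to have worked, so no nucleus was removed, and the 5% with the highest scores were left out as an alternative. Of the well barcodes, 1865 occurred in more than 1 sublibrary (113 of the rule-positive nuclei carried one) and 0 in more than 1 pool.

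UMIs were summed per pool. Levels are CPM (counts scaled to the same total of UMIs), and ratios are log2 of CPM plus 5 among genes with a mean of at least 20 CPM. Side and sex were tested with edgeR 4.0.16 (quasi-likelihood, TMM, side and labelled sex in 1 model, low-count filter) and DESeq2 1.42.0 as an alternative, and the scripts were tested on simulated data. Shares were tested by exact permutation of pools within the other factor. The nuclei and gene lists were chosen with earlier results of these data known, and the leading cluster's tests were added after the clusters were seen. Genes were named by a rule: the 7 rule genes, genes at least 2-fold apart in all 12 pools (the 20 highest and 10 lowest by median ratio), from each list such genes or otherwise the 2 most abundant, every called gene or the smallest p, and the side genes of an earlier report. Other genes were chosen after their values were seen. Alternatives were the scaling, filter, pseudocount, resolution, thinning, a stricter rule, the replicate block, DESeq2 and leaving out pools. For shares, the unnamed clusters were also counted as neurons. Pool numbers were not taken to pair left and right. Intervals cover counting error only.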

Additional observations from a re-analysis of the deposited data

Results flagged for a closer look

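In 5 of 92 groups of 6 pools, 1 pool lay far from the other 5, and chance flags about 1 in 20 groups. Lpar3 in rule-positive nuclei was at 118 CPM in ML2 among the left pools. Trpm8 was at 146 CPM in ML1 among the male-labelled pools and at 25.03 CPM in FR2 among the female-labelled pools, the latter from 13 UMIs in 8 of 100 nuclei. Tafa1 was at 88.4 CPM in MR2 among the right pools. In the leading cluster Adamts16, a secreted metalloprotease, was at 44.7 CPM in ML1 among the left pools, from 14 UMIs in 5 of 95 nuclei.

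The change from left to right differed between rule-positive nuclei and other neurons by 0.40 on the log2 scale for Nefm and by 2.32 for Tafa1, by edgeR's quasi-likelihood test of the difference itself. Between the leading cluster and the remaining neurons it differed by 0.48 for Asic2, 0.81 for Pde1c, 0.51 for Dpp10, 0.43 for Fbn1 and 1.56 for Adamts16. It differed in the other direction by -0.38 for Kcnq3, -0.36 for Cntn5, which encodes a contactin, -0.61 for Creb5 and -1.09 for ENSRNOG00000070383. That last gene was at 45.6 to 75.9 CPM in left and 24.8 to 35.4 CPM in right pools of the cluster, without overlap. Leaving out any single pool kept the calls of Asic2 and Kcnq3, and each of the other 7 was lost without at least 1 of the pools MR1 and FR3. DESeq2 called none of the 9 (661 genes had an unadjusted p under 0.05 in edgeR).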

How the results depend on the processing

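No direction that passed a test was turned by an alternative. The rule-positive share of neurons, right minus left, was -0.760 points thinned to 2000 UMIs (exact permutation, adjusted p = 0.06), -0.477 with at least 3 of the 4 genes, -1.42 as percent of all nuclei and -0.497 inside the leading cluster only, and -1.82 to -1.25 with single pools left out. The same share, female-labelled minus male-labelled, was 0.317 thinned, 0.418 with at least 3 genes, 0.900 as percent of all nuclei and 0.172 inside the leading cluster only, and 1.07 to 1.63 with pools left out. The leading cluster's share by sex, not called, was -0.0318 as percent of all nuclei, -0.232 without ML1 and FL1 and -0.136 to 0.346 with pools left out, and by side -0.894 to -0.487. Median UMIs by side were 68.4 in rule-positive nuclei of the leading cluster only, 98.7 without ML1 and FL1 and -297 to 180 with pools left out (by sex 680 to 1156). The share of rule-positive nuclei in their leading cluster was 36.7% with at least 3 genes and 23.0 to 23.9% with pools left out. At resolution 0.5 that cluster was a larger one of 4005 nuclei. It held 26.4% of the rule-positive nuclei but also 15.1% of the other neurons, against 3.41% as reported. At resolution 2 it had 1094 nuclei, with 23.4% of the rule-positive nuclei and 3.34% of the other neurons.

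Counts of called genes moved more. Without the low-count filter they were 25 by side, 47 by sex, 13 for the interaction and 23 for the side difference from other neurons in rule-positive nuclei, and 14 by side and 16 by sex in the leading cluster. By DESeq2 they were 1 by sex and 0 for the side difference in rule-positive nuclei, and 1 by side and 0 for the side difference in the cluster; with DESeq2 size factors the side differences were 4 and 14. Without ML1 and FL1 they were 9 by sex and 6 for the side difference in rule-positive nuclei, and 2 by side, 18 by sex and 4 for the side difference in the cluster. Without the highest doublet scores they were 4 for the side difference in rule-positive nuclei, and 4 by side and 9 by sex in the cluster. With at least 3 of the 4 genes they were 0 by sex, 1 for the interaction and 5 for the side difference, and in rule-positive nuclei of the leading cluster only 0 by sex and 0 for the side difference. All rule nuclei of any class gave 14 by sex. Genes at least 2-fold lower in rule-positive nuclei were 17 with at least 3 genes, 64 in rule-positive nuclei of the leading cluster only (1 higher), 18 thinned and 4 for nuclei of any class. The cause of these changes was not tested.

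With single pools left out, calls ranged from 0 to 1 by side, 0 to 8 by sex (0 without MR2, FL2 or FL3, 8 without FL1), 0 to 1 for the interaction and 2 to 19 for the side difference (19 without ML2) in rule-positive nuclei. In the cluster they ranged from 1 to 9 by side (1 without FL2 or FR3), 2 to 21 by sex (2 without MR3, 21 without ML1) and 3 to 13 for the side difference (3 without MR1). Genes 2-fold higher numbered 0 to 0 in rule-positive nuclei and 4 to 7 in the cluster, and lower 9 to 12 and 91 to 101.

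With the pool number as a replicate block, 8 genes were called by side in rule-positive nuclei against 0 and 8 in the cluster against 7, and the share by side (difference -1.49 points) had an exact permutation p of 0.03125, the smallest that its 64 relabellings can give, and 0.0625 after adjustment, with the same difference. The numbers were not taken as a pairing: correlations of same-numbered pools were 0.0294 to 0.195 over 5591 genes, above 0.1 in 2 of 6, although each left pool correlated best with its own number.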
